A study of Danio rerio with 6 samples.

Results

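The genes described here encode proteins of the mitochondrial ribosome (mitoribosome) of the zebrafish. They were chosen by name, as every gene whose symbol is mrpl or mrps followed by a digit with upper and lower case treated alike, and 75 of the 32520 genes in each count table met this rule. Of these, 47 have an *mrpl* symbol and 28 an *mrps* symbol. By the place of their mammalian counterparts, 49 encode proteins of the large subunit and 26 of the small subunit, because the products of *mrps18a* and *mrps30* sit in the large subunit despite their names.

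Mitochondria keep a small genome, and the mRNAs made from it are translated inside the organelle by a ribosome of their own. The RNAs of this ribosome come from the mitochondrial genome, whereas its proteins are encoded in the nucleus, made in the cytosol and imported. The small subunit decodes the mRNA, and the large subunit joins the amino acids and releases the new protein at the inner membrane, where nearly all products become parts of the respiratory chain. Oocytes gather very large numbers of mitochondria while they grow, and this stock is passed on to the embryo.

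The study sequenced total RNA of gonads from juvenile zebrafish, labelled as female and as ovary, in 6 samples of 3 pooled gonads each. In 3 samples the fish had the genotype tg(ziwi:GFP), eif4e1b +/+ (wild type), and in the other 3 the genotype tg(ziwi:GFP), eif4e1b -/- (*eif4e1b* mutant), so that both groups carried the transgene. *eif4e1b* encodes a germline form of the cap-binding protein eIF4E, and the question asked of these samples is which mRNA levels differ in gonads without it. The transgene places a green fluorescent protein under the promoter of *ziwi* (*piwil1*), which is active in germ cells, and only gonads that fluoresced strongly were used. The mutants carry small CRISPR deletions in the third exon, and the sources used here do not state which deletion allele the sequenced fish had. Age is given only as juvenile.

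The total count per sample ranged from 11771342 to 13362230 in the wild type and from 5539470 to 8233080 in the mutants. Levels below are CPM values (counts scaled to a common library size) after trimmed mean of M-values scaling, abbreviated TMM-CPM, a scale that sets samples level on the bulk of the genes. *eif4e1b* itself was counted 1391, 1116 and 1386 times in the 3 wild-type samples and 55, 9 and 24 times in the 3 mutant samples. Oocyte markers fell in the same samples, as given below, so this fall is no separate check of the genotype labels. The labelled tissue was checked against its markers. Over all genes tested, 32% were lower and 37.5% higher in the mutants at an adjusted p under 0.05 (edgeR's quasi-likelihood test). All 14 oocyte markers were lower in the mutants in edgeR's quasi-likelihood test, with summed levels of 11217 to 14947 TMM-CPM in the wild type and 47.3 to 415 TMM-CPM in the mutants, and none was at 0 throughout a genotype. The egg-factor gene *figla* fell by 5.98 on the log2 scale (adjusted p = 0.000349, edgeR). Markers of several other tissues were higher in the mutants. They included 16 of 16 exocrine pancreas genes (summed level 100.6 to 422 TMM-CPM in the wild type and 43372 to 75276 TMM-CPM in the mutants). So were 8 of 9 muscle genes, with 1 lower, and 5 of 6 tested genes of testis somatic cells. Of 10 liver genes 2 were higher (median log2 fold change 5.40), and the groups overlapped in all 10. This is 20%, below the share of all genes. When samples were scaled by their library totals alone 10 of 10 were higher, and 8 of 10 when scaled by the upper quartile of their counts. Of all genes 41.1% and 49.0% were higher under these scalings. Skin genes were mixed, with 2 of 5 higher (40%, near the share of all genes) and 1 lower. The lower one was *epcam*, with a mean of 722 TMM-CPM in the wild type and 23.6 TMM-CPM in the mutants. Of 8 germ cell genes 3 were lower (37.5%, near the 32% of all genes) and 1 higher. Of 6 symbols listed for ovarian somatic cells only 2 were matched, the gonadotropin receptor genes *fshr* and *lhcgr*. Both were higher, but these 2 genes do not show how transcripts of that cell type changed. Pancreas, liver, muscle, skin and red blood cell genes together took 0.0921% to 0.458% of all counts in the wild type and 6.83%, 19.4% and 12.7% in mutant replicates 1, 2 and 3.

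Mitoribosomal protein mRNAs were lower in the mutant gonads across both subunits. All 75 genes had enough counts to be tested. Of these, 50 were lower and none was higher at an adjusted p under 0.05 (edgeR's quasi-likelihood test, two-sided, Benjamini-Hochberg over 20091 genes). Over all genes tested, 32% were lower and 37.5% were higher by the same rule. No member was higher at an unadjusted p under 0.05 (0 of 75 in edgeR), and DESeq2 and limma-voom also called 0 members higher. In 57 members all 3 mutant samples lay below all 3 wild-type samples, an order found in 35.4% of all genes, and in 0 members did all mutant samples lie above, against 39.8% of all genes. The median log2 fold change (mutant over wild type) of the members was -1.02, beside 0.23 over all genes. In pooled gonads, fewer cells of a type and less RNA per cell cannot be told apart.

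The size of the fall depended on how the samples were scaled. With library totals alone 22 members were lower and 0 higher, with a median of -0.60, and with upper-quartile factors 19 were lower and 3 higher, with a median of -0.32. All of these lower members were among the 50. They made up 29.3% and 25.3% of the members, beside 18.6% and 19.9% of all genes lower under the same scalings, so with upper-quartile factors the share was near that of all genes. The same choices moved the median of all genes from 0.23 to 0.65 and 0.92, and raised the share of higher genes among all calls from 53.9% to 68.8% and 71.1%. Relative to that median the members stood at -1.25 with TMM and with library totals, and at -1.24 with upper-quartile factors. A change of scaling moves all genes by nearly the same amount. This distance could therefore hardly change and is no check of the scaling.

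**Figure D1:**
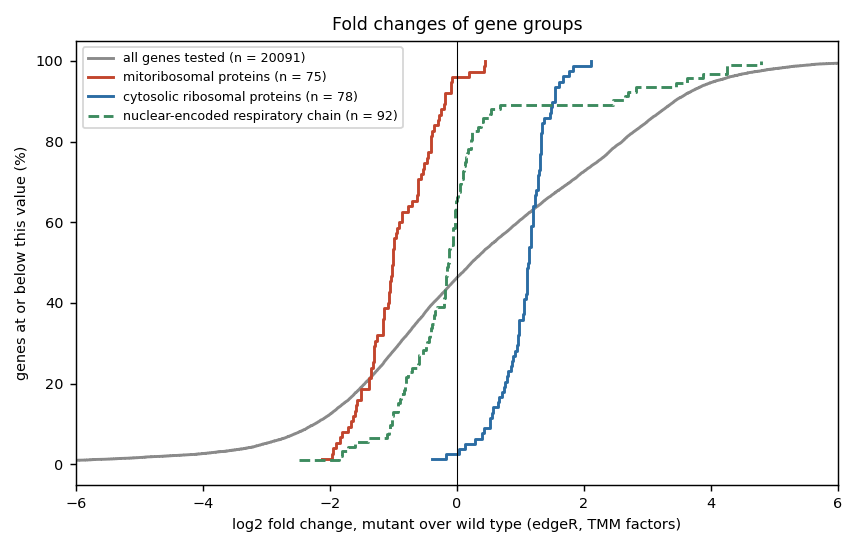
Cumulative share of genes (vertical axis, %) at or below each log2 fold change, mutant over wild type (horizontal axis, TMM scaling, shown from -6 to 6), for all 20091 genes tested, 75 mitoribosomal genes, 78 cytosolic ribosomal protein genes and 92 nuclear genes of the respiratory chain. The mitoribosomal curve reaches its middle at -1.02 and the cytosolic ribosomal curve at 1.13, beside 0.23 for all genes. With upper-quartile factors these medians are -0.32, 1.82 and 0.92, and that of the respiratory chain turns from -0.14 to 0.55.

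Summed over the 75 genes, the level was 3948, 3338 and 3652 TMM-CPM in wild-type replicates 1, 2 and 3 and 1765, 2222 and 1673 TMM-CPM in the mutant replicates. The groups did not overlap, and mutant replicate 2 was the highest of its group. The means were 3646 ± 306 (SD, n = 3) and 1887 ± 294 (SD, n = 3), a sum 1.93-fold lower in the mutants. With upper-quartile factors the means were 2871 ± 265 and 2399 ± 391 CPM, a sum 1.2-fold lower, and the groups overlapped, since mutant replicate 2 (2834 CPM) was above wild-type replicates 2 and 3 (2659 and 2784 CPM). Without any scaling, the members took 0.332%, 0.308% and 0.316% of all counts in the wild type and 0.260%, 0.174% and 0.212% in the mutants. On this plain share mutant replicate 2 was instead the lowest sample, and it was also the one with 21.2% of its counts in its 10 top genes, against 7.71% and 11.5% in the other mutants and 3.28% to 4.1% in the wild type. With the counts of the pancreas, liver, muscle, skin and red blood cell lists taken out of the total, the shares of the mutants were 0.279%, 0.216% and 0.243%, still below the lowest wild-type share of 0.308%. TMM factors computed without the tissue genes gave the same 50 lower members. The factors hardly moved (0.841 against 0.842 in wild-type replicate 1, 0.788 against 0.787 in mutant replicate 2), so this fit could hardly differ. Both checks leave out only the listed genes, and other transcripts of those tissues stay in. Every mutant sample had few oocyte transcripts, so the low level of these transcripts and the genotype cannot be told apart here.

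**Figure D2:**
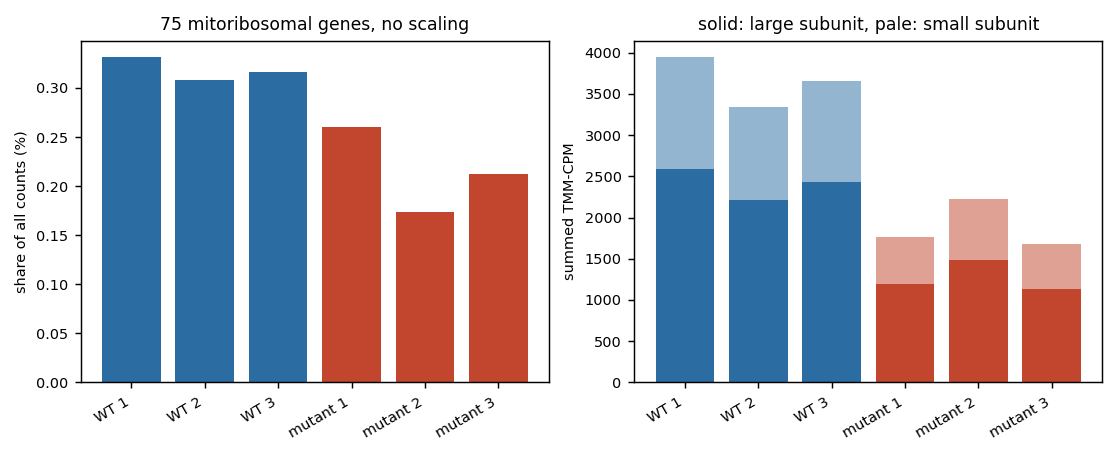
Left, share of all counts (%) taken by the 75 mitoribosomal genes in each sample without scaling; right, their summed TMM-CPM, split into large (solid) and small (pale) subunit. All 3 mutant samples are below all 3 wild-type samples on both scales, though not with upper-quartile factors, and mutant replicate 2 is lowest on the left (0.174%) and highest of the mutants on the right (2222 TMM-CPM).

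Lower genes were spread over both subunits. In the large subunit 33 of 49 genes were lower and in the small subunit 17 of 26, with a median log2 fold change of -1.02 in each. With library totals 15 and 7 were lower, and with upper-quartile factors 10 and 9 were lower and 1 and 2 higher. Of all genes 18.6% and 19.9% were lower under these scalings, so the 10 of 49 large-subunit genes were near the share of all genes. The summed level of the large subunit was 1.90, 1.97 and 1.99 times that of the small subunit in the wild-type samples and 2.11, 2.01 and 2.08 times in the mutants. These ratios did not overlap, but they differed little and were not tested. Of the genes with a bacterial counterpart 31 of 47 were lower and of those without one 19 of 28, with medians of -1.0 and -1.08. These are 66% and 67.9%, beside 32% of all genes. Among the 50 lower members the log2 fold changes ran from -2.12 to -0.52 with standard errors of 0.16 to 0.42, and 40 of them fell by at least 1 on the log2 scale.

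**Figure D3:**
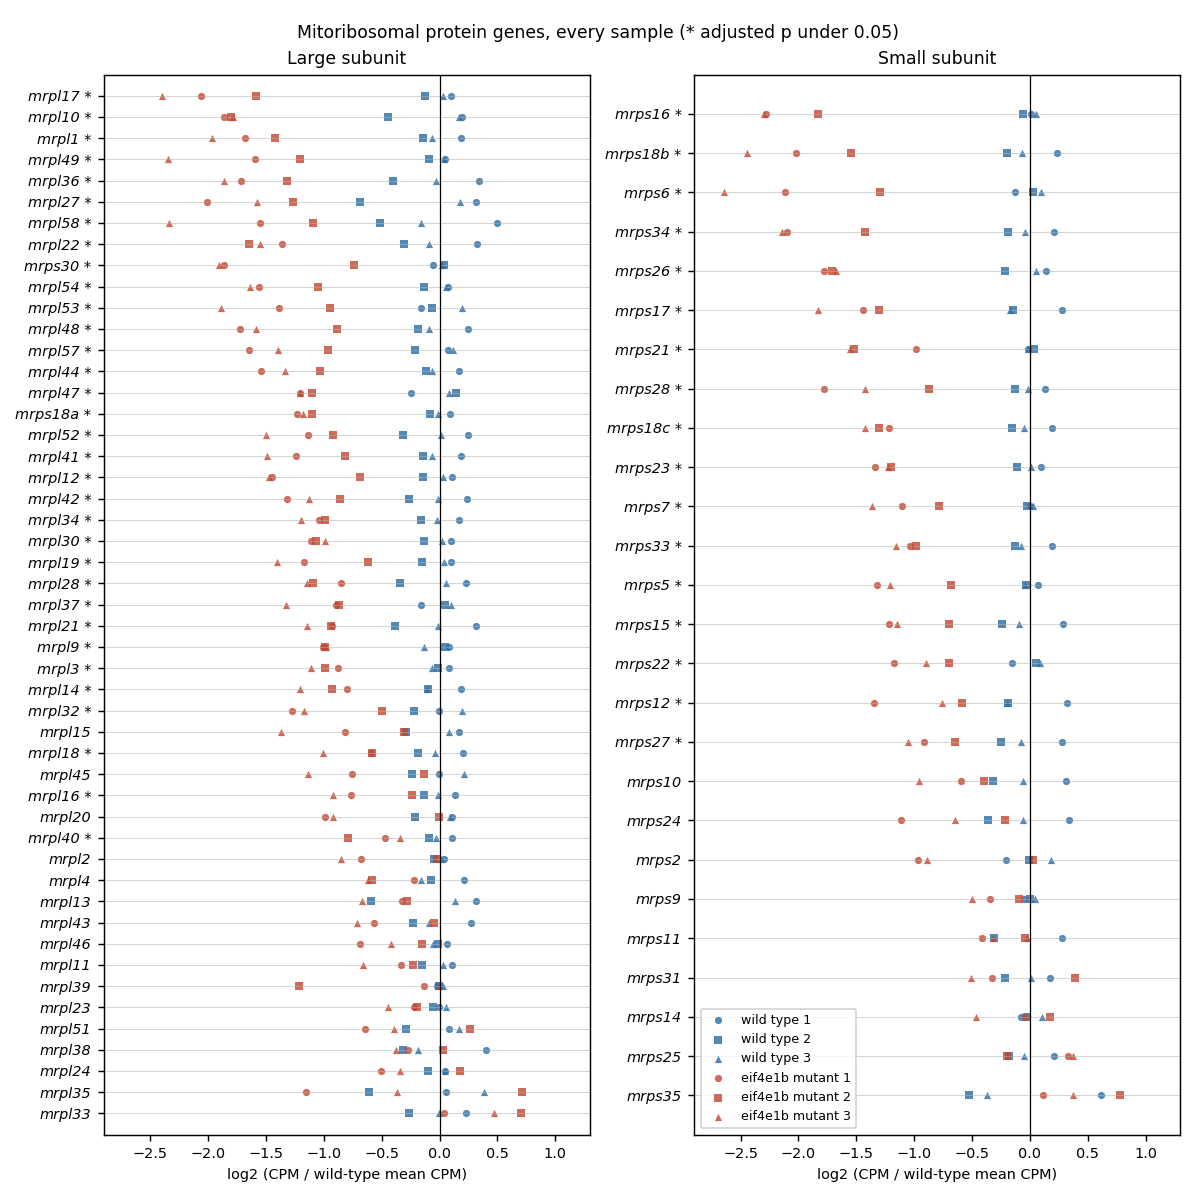
Level of every mitoribosomal gene in each of the 6 samples, as log2 of its TMM-CPM over the wild-type mean (horizontal axis), ordered by the mean change within each subunit; asterisks mark an adjusted p under 0.05. Most mutant points lie left of the wild-type points, from *mrps16* at a log2 fold change of -2.12 to *mrps35* at 0.45; with upper-quartile factors *mrpl16* and *mrpl40* turn, of the 50 lower genes.

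The small subunit held the member with the smallest p-value. *mrps16* (ENSDARG00000098972), a protein of the subunit body kept from bacteria, had 77.1, 73.6 and 79.7 TMM-CPM in the wild type and 15.8, 21.6 and 15.6 TMM-CPM in the mutants. Every mutant sample was far below every wild-type sample. The coefficient of variation was 3.95% in the wild type and 19.2% in the mutants, the latter near the mutant median over all members (20.4%). The log2 fold change of *mrps16* was -2.12 (SE 0.20, adjusted p = 0.000392, edgeR). *mrps26* (ENSDARG00000039719), a body protein that bacteria lack, had 136, 107 and 128 TMM-CPM in the wild type and 35.9, 37.7 and 38.7 TMM-CPM in the mutants. The 3 mutant samples of *mrps26* were nearly alike, and its log2 fold change was -1.72 (SE 0.18, adjusted p = 0.000471, edgeR).

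Most genes of the small-subunit body were lower. Of its 18 genes 15 passed the test, all downward, with a median log2 fold change of -1.28. With library totals 7 were lower, and with upper-quartile factors 9 were lower and 1 higher. Of all genes 32% were lower with TMM, and 18.6% and 19.9% under these scalings. Besides those given with their levels, *mrps6* fell by 1.91 on the log2 scale, *mrps34* by 1.85, *mrps17* by 1.51, *mrps21* by 1.32, *mrps28* by 1.31 and *mrps23* by 1.26. Smaller falls were those of *mrps5* (1.04), *mrps15* (1.0), *mrps22* (0.91), *mrps27* (0.86) and *mrps12* (0.86), the last of which encodes the counterpart of a bacterial protein of the decoding centre. *mrps2*, *mrps11* and *mrps25* did not pass the test.

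In the small-subunit head, the part that moves as tRNAs pass through, 2 of 8 genes were lower. This is 25%, below the 32% of all genes. *mrps7*, which encodes a core protein of the head, fell by 1.07 on the log2 scale and *mrps33* also fell, with a change of -1.06. *mrps9*, *mrps10*, *mrps14*, *mrps24*, *mrps31* and *mrps35* did not pass the test, and the median of the head was -0.46. With upper-quartile factors this median was 0.23, with 0 head genes lower and 1 higher, whereas the median of the body was -0.59. The median of all genes was 0.92 under this scaling. The difference between head and body was not tested.

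The 3 paralogs of bacterial S18 were all lower. *mrps18a* (ENSDARG00000024465), whose mammalian product is in the large subunit, had 97.1, 85.8 and 90.3 TMM-CPM in the wild type and 38.8, 42.5 and 40.3 TMM-CPM in the mutants. *mrps18b* (ENSDARG00000007065), a small-subunit gene, had 59.8, 44.2 and 48.3 TMM-CPM in the wild type and 12.5, 17.4 and 9.34 TMM-CPM in the mutants. *mrps18c* (ENSDARG00000069624), also of the small subunit, had 63.1, 49.7 and 53.6 TMM-CPM in the wild type and 23.9, 22.5 and 20.7 TMM-CPM in the mutants. None of the 3 had overlapping groups. Their log2 fold changes were -1.17 (SE 0.16) for *mrps18a*, -1.96 (SE 0.28) for *mrps18b* and -1.31 (SE 0.18) for *mrps18c*, with adjusted p-values of 0.00116, 0.00137 and 0.00123 in edgeR's quasi-likelihood test. With library totals alone *mrps18a* and *mrps18c* missed the threshold (adjusted p = 0.0722 and 0.0576, edgeR).

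The large-subunit member with the smallest p-value was *mrpl17* (ENSDARG00000075677), which encodes a protein near the mouth of the tunnel through which the new protein leaves. It had 75.9, 65.0 and 72.3 TMM-CPM in the wild type and 17.0, 23.7 and 13.5 TMM-CPM in the mutants. No mutant sample came near the wild-type range, and the log2 fold change of *mrpl17* was -1.98 (SE 0.25, adjusted p = 0.000897, edgeR). Of the 7 genes around the exit tunnel 4 were lower (57.1%, beside 32% of all genes), with a median of -1.17. *mrpl22* fell by 1.51 on the log2 scale, *mrpl44* by 1.29 and *mrpl47* by 1.17. *mrpl23*, *mrpl24* and *mrpl45*, the last encoding a protein that ties the ribosome to the inner membrane in mammals, did not pass the test.

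The L1 stalk, which guides spent tRNAs out of the ribosome, was represented by *mrpl1* (ENSDARG00000054606). It had 49.3, 39.3 and 41.3 TMM-CPM in the wild type and 13.5, 16.1 and 11.1 TMM-CPM in the mutants. The groups were well apart, and the log2 fold change of *mrpl1* was -1.67 (SE 0.22, adjusted p = 0.00103, edgeR).

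The other stalk of the large subunit recruits the translation factors, and 4 of its 5 genes were lower, with a median of -1.36. Of all genes 32% were lower. With upper-quartile factors 2 of the 5 were lower, beside 19.9% of all genes. *mrpl10* (ENSDARG00000045091), the anchor protein of this stalk, had 14.3, 9.12 and 13.9 TMM-CPM in the wild type and 3.43, 3.57 and 3.60 TMM-CPM in the mutants. *mrpl12* (ENSDARG00000038768), the protein that touches the factors, had 149, 126 and 142 TMM-CPM in the wild type and 51.1, 86.3 and 49.9 TMM-CPM in the mutants. For both genes the mutant samples were all lower, with mutant replicate 2 standing above the other 2 for *mrpl12* only. The log2 fold change was -1.81 (SE 0.30, adjusted p = 0.0022, edgeR) for *mrpl10* and -1.15 (SE 0.26, adjusted p = 0.00752, edgeR) for *mrpl12*, which missed the threshold with upper-quartile factors (adjusted p = 0.159, edgeR). *mrpl54* and *mrpl53* fell by 1.39 and 1.36 on the log2 scale, and *mrpl11* did not pass the test.

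**Figure D4:**
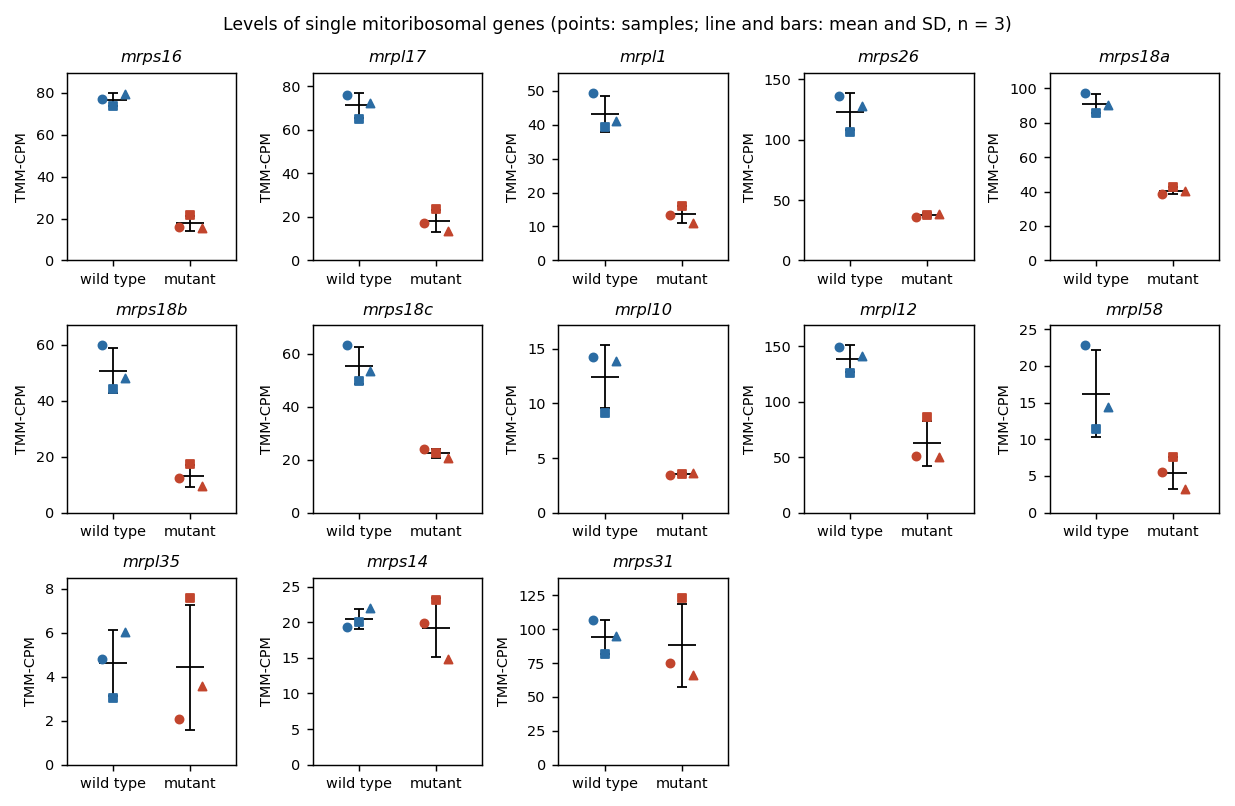
TMM-CPM of 13 mitoribosomal genes (vertical axes from 0) in the 3 wild-type and 3 mutant samples; symbols are samples (circle, square and triangle for replicates 1, 2 and 3), lines and bars the mean and SD, n = 3. In the first 10 panels no mutant sample reaches the wild-type range, as in *mrps16* (15.6 to 21.6 against 73.6 to 79.7), while the groups overlap for *mrpl35*, *mrps14* and *mrps31*.

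*mrpl58* (ENSDARG00000078835) encodes a peptidyl-tRNA hydrolase that is built into the mammalian large subunit and frees stalled chains. It had 22.8, 11.3 and 14.4 TMM-CPM in the wild type and 5.51, 7.6 and 3.20 TMM-CPM in the mutants. The wild-type samples spread widely, yet the lowest was above the highest mutant sample. The log2 fold change of *mrpl58* was -1.58 (SE 0.42, adjusted p = 0.014, edgeR), and it missed the threshold with upper-quartile factors (adjusted p = 0.104, edgeR).

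In the central protuberance, the crown of the large subunit that faces the head of the small one, 5 of 7 genes were lower with a median of -0.71. *mrpl27* fell by 1.59 on the log2 scale, *mrpl48* by 1.35, *mrpl52* by 1.17, *mrpl18* by 0.71 and *mrpl40* by 0.52. *mrpl38* and *mrpl46* did not pass the test. With library totals 2 were lower. Of all genes 32% were lower with TMM and 18.6% with library totals. With upper-quartile factors none of these 7 genes was called in either direction.

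Among the 30 genes of the rest of the large subunit, which include *mrpl1*, *mrps18a* and *mrpl58*, 20 were lower, with a median of -1.0. This is 66.7%, beside 32% of all genes. With library totals 6 were lower, and with upper-quartile factors 4 were lower and 1 higher, with a median of -0.31. Of all genes 18.6% and 19.9% were lower under these scalings, so neither count stands clear above the share of all genes. Besides these 3, the genes with the largest falls on the log2 scale were *mrpl49* (1.64), *mrpl36* (1.62), *mrps30* (1.39) and *mrpl57* (1.31). The log2 fold changes of *mrpl41*, *mrpl42*, *mrpl34*, *mrpl30*, *mrpl19*, *mrpl37*, *mrpl28*, *mrpl21*, *mrpl9*, *mrpl3*, *mrpl14*, *mrpl32* and *mrpl16* lay between -1.16 and -0.61. *mrpl3* and *mrpl14*, which encode core proteins kept from bacteria, were near the middle of this range, with -0.99 and -0.97. *mrpl2*, *mrpl4*, *mrpl13*, *mrpl15*, *mrpl20*, *mrpl33*, *mrpl35*, *mrpl39*, *mrpl43* and *mrpl51* did not pass the test.

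The 25 members that missed the threshold had log2 fold changes between -0.77 and 0.45, and in 18 of them the groups overlapped. The largest p-values were those of *mrpl35*, *mrps31* and *mrps14*. *mrps31* (ENSDARG00000057855), a head protein without a bacterial counterpart, had 107, 81.4 and 94.9 TMM-CPM in the wild type and 75.3, 123 and 66.3 TMM-CPM in the mutants. *mrps14* (ENSDARG00000068305), a conserved head protein, had 19.3, 20.1 and 22.0 TMM-CPM in the wild type and 19.8, 23.1 and 14.8 TMM-CPM in the mutants. *mrpl35* (ENSDARG00000070589) had 4.81, 3.04 and 6.06 TMM-CPM in the wild type and 2.08, 7.6 and 3.60 TMM-CPM in the mutants. In all 3 genes mutant replicate 2 was the highest of all 6 samples. Their log2 fold changes were -0.10 (SE 0.27) for *mrps31*, -0.09 (SE 0.23) for *mrps14* and -0.08 (SE 0.54) for *mrpl35*, with adjusted p-values of 0.768, 0.74 and 0.904 (edgeR), so the precision for *mrpl35* was low.

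A few further members were singled out after their values were seen. The 3 members with a log2 fold change above 0 were *mrps35* (0.45), *mrpl33* (0.43) and *mrps25* (0.19), and these are also the 3 called higher with upper-quartile factors. *mrps35* had 23.3, 10.5 and 11.8 TMM-CPM in the wild type and 16.4, 26.1 and 19.6 TMM-CPM in the mutants. Only wild-type replicate 1 reached into the mutant range, and without that sample *mrps35* was called higher in edgeR. *mrpl39* had 92.3, 93.6 and 95.4 TMM-CPM in the wild type and 85.2, 40.5 and 93.4 TMM-CPM in the mutants. Here mutant replicate 2 stood alone far below the other 5 samples, the reverse of its usual place, and the log2 fold change of *mrpl39* was -0.36 (SE 0.32, adjusted p = 0.336, edgeR).

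The spread between samples was wider in the mutants. The coefficient of variation over the members had a median of 12.3% in the wild type and 20.4% in the mutants. Mutant replicate 2 was the highest of its group in 60 of 75 members, and mutant replicate 3 the lowest in 43. This order turned with library totals alone, where mutant replicate 2 was the highest in 4 members and the lowest in 57. On the TMM scale the median level of a member was 46.3%, 56.6% and 44.7% of its wild-type mean in mutant replicates 1, 2 and 3. In the wild type, replicate 1 was the highest in 56 members and replicate 2 the lowest in 56. Mutant replicate 2 also had the highest summed level of the 10 liver markers, with 181749 TMM-CPM against 800 and 23582 TMM-CPM in the other mutants and 140 to 4096 TMM-CPM in the wild type. Its part in the spread was not tested. Without this sample 57 members were lower and 0 higher.

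Reads from genes that overlap a member could be counted for it. In the RefSeq annotation of another assembly, 52 members had no overlapping gene, and 36 of these were lower with a median of -1.03. Of the 23 members with at least 1 overlapping gene 14 were lower, with a median of -0.91.

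The mitoribosome also has proteins known by other symbols. Of 5 such genes 4 were lower and 0 higher, with a median log2 fold change of -0.97. Of all genes 32% were lower. *aurkaip1*, a small-subunit protein gene, had 74.7 to 89.6 TMM-CPM in the wild type and 23.9 to 39.3 TMM-CPM in the mutants, a log2 fold change of -1.49 (SE 0.24, adjusted p = 0.00205, edgeR). *gadd45gip1*, a large-subunit protein gene, had a log2 fold change of -1.03 (SE 0.18, adjusted p = 0.00268, edgeR). It missed the threshold with library totals (-0.64) and with upper-quartile factors (-0.34), and under both 1 of the 5 genes was lower. This is near the share of all genes lower under these scalings (18.6% and 19.9%).

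Genes for building the mitoribosome were mostly lower. Of 28 genes for assembly and rRNA modification 20 were lower and 2 higher, with a median of -1.36. With library totals 11 were lower and 2 higher, and with upper-quartile factors 13 were lower and 3 higher. Of all genes 32% were lower with TMM, and 18.6% and 19.9% under these scalings. *ddx28*, a helicase of large-subunit assembly, had 75.4, 70.4 and 75 TMM-CPM in the wild type and 12.2, 10.6 and 11.7 TMM-CPM in the mutants. *trub2*, a pseudouridine synthase of mitochondrial RNA, had 105, 106 and 100 TMM-CPM in the wild type and 23.4, 17.5 and 17.5 TMM-CPM in the mutants. Both were low in every mutant sample, with log2 fold changes of -2.67 (SE 0.17, adjusted p = 0.000286, edgeR) for *ddx28* and -2.42 (SE 0.19, adjusted p = 0.000308, edgeR) for *trub2*. The 2 genes that rose were *rcc1l* (log2 fold change 1.38) and *mettl17* (1.06). The difference between this list and the members was not tested.

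Other genes that mitochondrial translation needs were lower in part. Of 15 mitochondrial aminoacyl-tRNA synthetase genes, which load tRNAs with amino acids, 10 were lower and 1 higher, with a median of -1.08. With library totals 4 were lower and 1 higher, and with upper-quartile factors 4 were lower and 3 higher, with a median of -0.38. Of all genes 18.6% and 19.9% were lower under these scalings. *nars2* and *vars2*, for asparagine and valine, fell by 1.98 and 1.38 on the log2 scale. Of 15 translation factor genes 6 were lower and 0 higher, with a median of -0.62 that turned to 0.07 with upper-quartile factors (4 lower, 2 higher). Of all genes 32% were lower with TMM and 19.9% with upper-quartile factors. The 40% of translation factors lower with TMM was thus not far above the share of all genes. With upper-quartile factors the median of all genes was 0.92. The release factor gene *mtrf1l* and the rescue factor gene *mtrfr* fell by 1.67 and 1.91 on the log2 scale. Both kept their call under every scaling tried.

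Of 8 genes for mitochondrial DNA and its transcription 4 were lower and 1 higher, with a median of -0.42. It turned to 0.27 with upper-quartile factors (1 lower, 3 higher), when 49.0% of all genes were higher and their median was 0.92. Of all genes 32% were lower with TMM and 19.9% with upper-quartile factors. The helicase gene *twnk* had 45.8, 58.3 and 56.1 TMM-CPM in the wild type and 16, 16.1 and 16.3 TMM-CPM in the mutants, a log2 fold change of -1.72 (SE 0.18, adjusted p = 0.000505, edgeR). *polrmt*, the mitochondrial RNA polymerase gene, fell by 0.92 on the log2 scale but missed the threshold with library totals (-0.46) and with upper-quartile factors (-0.23), and *tfb2m*, which encodes its initiation factor, rose by 2.18. Of 9 regulators of mitochondrial genes 5 were lower and 3 higher, and with upper-quartile factors 2 were lower and 4 higher. *nrf1*, a transcription factor known in mammals for driving nuclear genes of mitochondrial function, had 110, 114 and 117 TMM-CPM in the wild type and 41.9, 28.2 and 41.2 TMM-CPM in the mutants. *pprc1*, a coactivator gene related to *ppargc1a*, had 539, 661 and 662 TMM-CPM in the wild type and 103, 100 and 98.0 TMM-CPM in the mutants. These are log2 fold changes of -1.61 (SE 0.21, adjusted p = 0.000986, edgeR) for *nrf1* and -2.63 (SE 0.23, adjusted p = 0.000347, edgeR) for *pprc1*, with no overlap between genotypes in either. *ppargc1a* itself rose by 3.57 from a very low level, 0.28 to 0.82 TMM-CPM in the wild type.

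**Figure D5:**
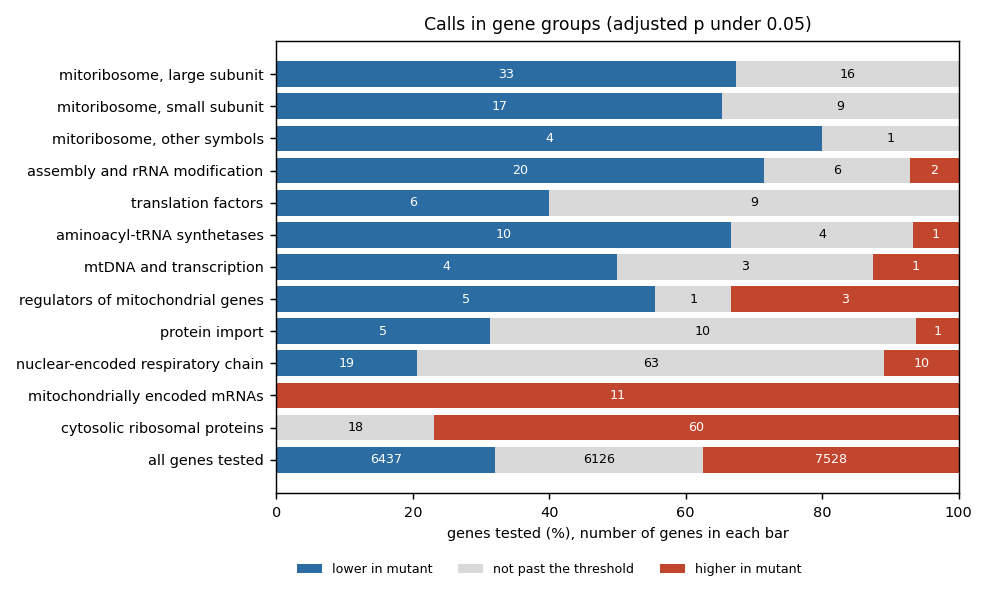
Share of the genes tested in each list (horizontal axis, %) that were lower, not past the threshold or higher in the mutants at an adjusted p under 0.05 (edgeR, TMM scaling), with the number of genes in each bar. Lower calls dominate the mitoribosomal groups (33 of 49 and 17 of 26), and higher calls the cytosolic ribosomal proteins (60 of 78); with upper-quartile factors lower calls among the members drop to 19 and 3 turn higher.

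The proteins of the cytosolic ribosome went the other way. Of 78 cytosolic ribosomal protein genes tested 60 were higher (76.9%) and 0 lower, with a median log2 fold change of 1.13. Of all genes 37.5% were higher, with a median of 0.23. With library totals 69 of the 78 were higher and with upper-quartile factors 74, with medians of 1.48 and 1.82. Under these scalings 41.1% and 49.0% of all genes were higher. The median of all genes rose as well, so the kept sign is no check of the scaling. The summed level of the cytosolic ribosomal genes was 15481 to 24176 TMM-CPM in the wild type and 31693 to 54833 TMM-CPM in the mutants, without overlap. *rps27.1* rose by 1.61 on the log2 scale. The symbol *rps26* belongs to 2 genes in the table, and the one that rose (ENSDARG00000030408) had a log2 fold change of 2.12, while the other (ENSDARG00000037071) did not pass the test (0.55, adjusted p = 0.14, edgeR).

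The respiratory chain, whose core the mitoribosome makes, showed no common direction among its nuclear genes. Of 92 tested 19 were lower (20.7%) and 10 higher (10.9%), with a median of -0.14. Both shares were below those of all genes, 32% lower and 37.5% higher. With library totals 6 were lower and 12 higher and the median was 0.20. With upper-quartile factors 3 were lower and 24 higher and it was 0.55. Under these scalings 41.1% and 49.0% of all genes were higher, and the median of all genes was 0.65 and 0.92. The median of the list was below that of all genes under both. *atp5if1a*, which encodes an inhibitor of the ATP synthase, had 469, 486 and 536 TMM-CPM in the wild type and 91.3, 104 and 68.6 TMM-CPM in the mutants, a log2 fold change of -2.50 (SE 0.25, adjusted p = 0.000461, edgeR). *cox6b1*, for a subunit of cytochrome c oxidase, rose by 4.25 from a low level, 1.11 to 2.45 TMM-CPM in the wild type. It had 15.9, 59.4 and 21.1 TMM-CPM in mutant replicates 1, 2 and 3. Of 16 genes for import into mitochondria 5 were lower and 1 higher, a share of lower genes near the 32% of all genes. Their median of -0.25 turned to 0.44 with upper-quartile factors, when 0 were lower and 5 higher. Under that scaling 49.0% of all genes were higher, and the median of all genes, 0.92, was above that of the import genes.

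The mRNAs that the mitoribosome translates were counted at low levels. Of the 13 mRNAs encoded by the mitochondrial genome 11 could be tested and all 11 were higher in the mutants, with a median log2 fold change of 3.20. Of all genes 37.5% were higher, with a median of 0.23. *mt-co1*, for a core subunit of cytochrome c oxidase, had 11, 10.9 and 14.1 TMM-CPM in the wild type and 53.3, 155 and 65.5 TMM-CPM in the mutants. The sum over the 13 mRNAs was 19.1 to 27.6 TMM-CPM in the wild type and 112, 355 and 134 TMM-CPM in mutant replicates 1, 2 and 3. How reads with several matches were treated is not given in the sources used here, and its part in these low levels was not tested.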

How the data were processed

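RNA of 6 gonad samples (3 per genotype, 3 pooled gonads each) was purified by column and made into stranded libraries after depletion of ribosomal RNA. The authors deposited raw counts per gene, whole numbers for 32520 Ensembl genes in each sample, without normalization. The submitters' processing notes name Trim Galore 0.5.0, Bowtie2 2.3.4.1, featureCounts, Subread 1.6.2, DESeq2 1.18.1, R 3.4.1 and the build GRCz11. Not given in the sources used here are their roles, the annotation release, the strand setting and how multi-mapping reads were counted.

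Symbols came from a table of gene names for 29201 genes. Together with symbols in the paper's supplementary data, 29384 genes had one. RefSeq (assembly GRCz12tu) served only to find which genes overlap, with members matched by name. The subunit of each protein follows the mammalian mitoribosome. Its place is a coarse grouping of that structure, with *mrpl58* counted in the rest of the large subunit. Genes were kept by edgeR's default filter (minimum count 10 in enough samples, minimum total count 15), which left 20091, and the mutant was tested against the wild type by quasi-likelihood in edgeR (4.0.16, R 4.3.3, TMM factors, two-sided) with Benjamini-Hochberg adjustment over all genes tested and a threshold of 0.05. The procedure was also run on simulated data in which few genes changed, equally in both directions. That setting differs from these data and could not probe the dependence on scaling. The median, the sums and the counts by place are descriptions without a test. Members had 17 to 1974 counts per sample, which sets the precision of each value. The design text calls the samples biological replicates. The p-values set the difference between genotypes against the spread of samples within a genotype, which is estimated with help from all genes.

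The alternatives were DESeq2's Wald test (1.42.0), DESeq2's size factors in edgeR, limma-voom (limma 3.58.1), library totals, upper-quartile factors, TMM factors without tissue marker genes, no filter, a mean of at least 10 counts, calls limited to a log2 change of 1 or more in size, a replicate block and leaving out each sample in turn. Levels per sample are given for the 6 members with the smallest p-value that pass the threshold without overlap, the 3 with the largest, the paralogs of S18, *mrpl10*, *mrpl12* and *mrpl58*. No member failed the filter. From other lists, the named genes are up to 2 each way, by p-value, and the log2 fold changes of further members account for the rest. The result of 1 gene outside the members is not reported here. The members, the lists and these rules were chosen with earlier results of these data known. Levels are not compared between genes, since no transcript lengths were used. Plots used matplotlib 3.10.9, and tables pandas 2.3.3 under python 3.11.15.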

Additional observations from a re-analysis of the deposited data

How the results depend on the processing

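The scaling of the samples was the choice with the strongest effect. With library totals alone 22 members were lower with a median log2 fold change of -0.60, and with upper-quartile factors 19 were lower and 3 higher with a median of -0.32. Of all genes, 18.6% and 19.9% were lower under these scalings, beside 29.3% and 25.3% of the members. The summed level of the members averaged 3188 CPM in the wild type and 2166 in the mutants with library totals, and 2871 in the wild type and 2399 in the mutants with upper-quartile factors. Among the other alternatives, 51 members were lower with DESeq2's size factors, 55 with DESeq2's Wald test, 51 with limma-voom, 50 without a filter, 48 with a mean of at least 10 counts and 40 where the log2 change also had to reach 1 in size. Leaving out each sample in turn gave 46 to 57 lower members, 0 to 1 higher members (*mrps35*, without wild-type replicate 1) and medians from -1.13 to -1.0. Of the 50 lower members 14 were called in all 15 alternative fits, and 48 kept their sign in all of them, with *mrpl16* and *mrpl40* as the exceptions (upper-quartile factors). *mrpl16*, *mrpl40*, *mrps12*, *mrpl18* and *mrpl32* lost their call in at least 1 fit that left out a sample. The calls of *mrpl16* and *mrpl40* were the least stable of these, kept in only 6 and 5 of the 15 alternative fits. Same-numbered samples of the 2 genotypes deviated together with correlations of 0.117, -0.195 and -0.0524. Samples with unlike numbers had correlations from -0.404 to 0.405. These values show no pairing by number, but with 3 samples per genotype they cannot exclude it. With a replicate block 47 members were lower and 0 higher, with a median of -1.01. The cause of the shifts with scaling was not tested. The mutant libraries were shallower, and the low level of oocyte transcripts and the genotype cannot be told apart in these samples.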
